A study of Homo sapiens with 5 samples.

Results

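Lysosomes are the acidic compartments in which cells digest proteins, glycans, sulfated polysaccharides and lipids with soluble hydrolases. The V-ATPase pumps protons into them, and glycosylated membrane proteins such as LAMP1 and LAMP2 line their membrane. Many of these genes are targets of the MiT/TFE transcription factors TFEB, TFE3 and MITF, which bind CACGTG elements in promoters and are kept in the cytoplasm by the kinase mTORC1 when nutrients are plentiful. Here 44 lysosomal genes, chosen by name with earlier results of these data known, were followed among 30476 genes in an RNA-seq count table. They were found by their Ensembl identifiers. They comprised 6 membrane proteins, 11 proteases, 12 hydrolases of glycans and sulfate groups, 6 genes of lipid handling, the 3 MiT/TFE factors, the autophagy receptor SQSTM1 and 5 subunits of the V-ATPase. All 44 were in the table, and 39 averaged at least 100 normalized counts (counts divided by the size factor of the library) over the 5 libraries. The 5 below that mean were IDUA, CTSK, CTSS, MCOLN1 and TFEB.

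TOV21G is an established ovarian clear cell carcinoma line that carries mutated ARID1A, a subunit of the SWI/SNF chromatin remodeling complex. The 5 libraries comprised 1 of parental TOV21G cells and 4 of EZH2 inhibitor-resistant (EIR) cells. EIR cells had been selected from TOV21G with rising concentrations of the EZH2 inhibitor GSK126 (5, 10, 15 and 20 uM) before clones were picked. From clone 3 and from clone 4, 1 untreated and 1 GSK126-treated library were made, and values below follow the order untreated clone 3, untreated clone 4, treated clone 3, treated clone 4 unless named otherwise. Every library therefore shares the TOV21G background, and each EIR line is 1 clone. The parental cells were untreated. For the treated cultures the labels state no GSK126 dose and no length of treatment, and for the untreated clones no time without the inhibitor. They also do not say whether the libraries of a clone came from separate cultures, so p-values measure the spread between these libraries only.

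Total counts per library ranged from 25479238 to 30764963. The clear cell and Mullerian markers found in the table (5 genes, among them PAX8 and the keratins) summed to 22559.9 normalized counts in parental cells and to 24078.1 to 27797.0 in EIR cells. The markers of leukocytes and macrophages (4 genes) summed to 30.2 in parental cells and 5.1 to 18.0 in EIR cells, those of osteoclasts (2 genes) to 19.1 and 27.8 to 69.8, and those of endothelium (2 genes) to 9.1 and 13.9 to 21.2. CSF1R and AIF1 stood at 1.02 or less in every library. PTPRC and CD14 made up the rest of the leukocyte and macrophage sum, and the highest single value of that list was 27.2. ACP5 of the osteoclast list is itself a lysosomal phosphatase. EPCAM, an epithelial adhesion molecule, stood at 400.9 in parental cells and at 394.4 and 492.2 in clone 3, but at 0 and 1.06 in clone 4. The marker lists bear on CTSS and CTSK, proteases best known from antigen-presenting cells and osteoclasts.

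The first question was how lysosomal transcripts differed between EIR and parental cells. Many of the tested lysosomal genes were lower in EIR cells, among them the cathepsins CTSB, CTSF and CTSZ, the hydrolases GLB1 and HEXA, the sphingolipid activator precursor PSAP, the lipase LIPA, the cholesterol carrier NPC2 and the transcription factor TFEB. SQSTM1 was about as much higher as PSAP was lower. With DESeq2 and an adjusted p under 0.05, 19 of 43 tested members were called (44.2%), 17 of them lower and 2 higher, whereas 25.5% of all 16288 genes tested were called (13.2% lower and 12.4% higher). Over the 39 members that averaged 100 or more normalized counts, the median log2 fold change was -0.39, beside -0.06 over all 11564 such genes. In 24 of the 39 all 4 EIR libraries lay below the parental library, as in 40.6% of all such genes, and in 7 of the 39 all 4 lay above it, as in 31.9%. These are bulk libraries, in which fewer transcripts per cell and fewer cells expressing a gene cannot be told apart. The direction was mixed within the list, and the plot of ratios to the parental library shows which genes were on either side.

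**Figure D1:**
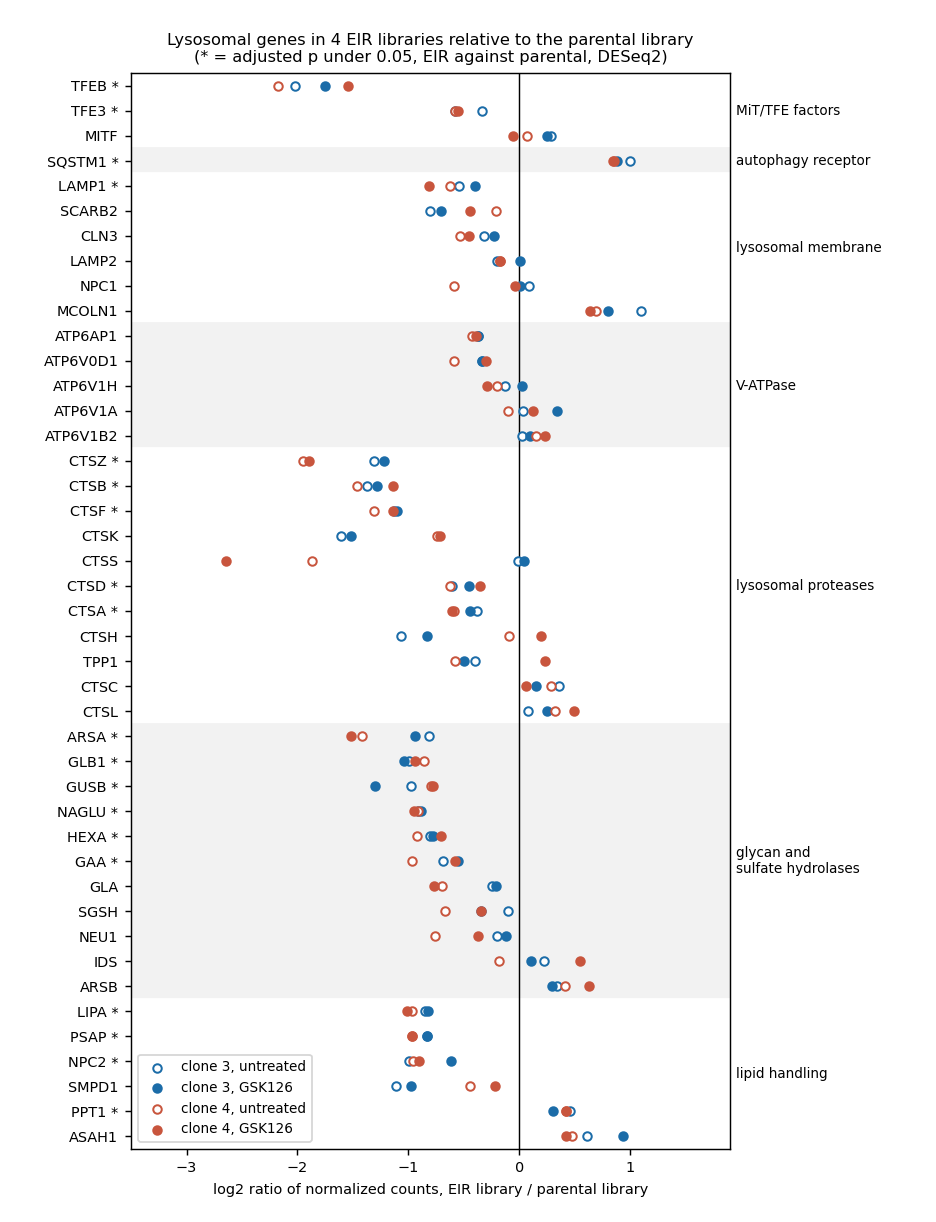
Each row is a lysosomal gene and each point an EIR library; the x axis is the log2 ratio of its normalized count to the parental library, with open points untreated, filled points GSK126-treated, blue clone 3 and red clone 4. Stars mark the 19 genes with an adjusted p under 0.05 (DESeq2); IDUA, at 0 counts in all EIR libraries, is not drawn. TFEB lies farthest to the left of the starred genes and SQSTM1 farthest to the right.

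The number of called members differed with the tool and with the removal of a trend with base composition. The quasi-likelihood test of edgeR called 11 of 43 members, 10 lower and SQSTM1 higher, beside 11.1% of all genes it tested (6.73% lower and 4.39% higher). Fold changes of all genes fell with GC content: the median over all genes with a mean of at least 100 was 0.29 on the log2 scale where the transcripts had below 45% GC, -0.11 between 45 and 55%, -0.33 between 55 and 60%, and -0.45 at 60% and above. The medians of the members lay below these in each range, at -0.13 (7 members), -0.28 (15), -0.51 (11) and -0.60 (6). With 1 parental library, a trend that arose in the libraries and a difference between the cells cannot be told apart. The 17 members called lower had a median GC content of 56.97%, the 21 expressed members that were not called 48.92%, and all expressed genes 48.3%. Once this trend was removed, 12 members were called, 10 lower and 2 higher, beside 19.5% of all genes (9.24% lower and 10.2% higher). The median log2 fold change of the 39 members was then -0.12 and that of all 11564 genes 0.02. With the trend removed, LAMP2 (adjusted p = 0.018, lower) and MCOLN1 (adjusted p = 0.0093, higher) were called in addition. The 4 EIR libraries are 2 from each of 2 clones, and same-clone libraries deviated together (correlation 0.862), so they are not 4 independent replicates. With the libraries of each clone summed 7 members were called, and with treatment as covariate 10. The median log2 fold change of the expressed members was -0.38 and -0.46 in these fits, beside -0.05 and -0.06 over all expressed genes. Leaving out untreated clone 3 or untreated clone 4 gave 12 calls each. For the summed, covariate and leave-out fits the share of all genes called is not given here. The 10 genes called by DESeq2, by edgeR and also with the trend removed were CTSB, CTSF, CTSZ, GLB1, HEXA, PSAP, LIPA, NPC2, TFEB and SQSTM1.

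**Figure D2:**
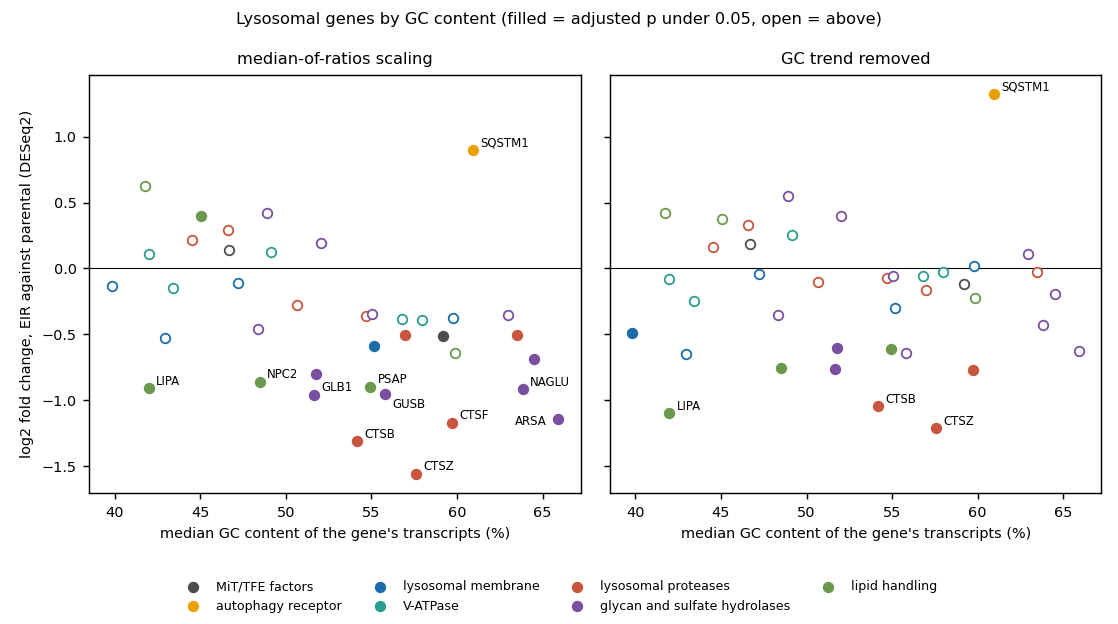
The y axis is the log2 fold change of EIR against parental cells (DESeq2) and the x axis the median GC content of the gene's transcripts in percent, for the 39 lysosomal genes whose mean reached 100 normalized counts; filled points have an adjusted p under 0.05. On the left, with median-of-ratios scaling, most filled points lie above 50% GC and below 0. On the right, with the GC trend removed, CTSZ, LIPA and CTSB are lowest and SQSTM1 is highest.

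Among the transcription factors, TFEB (chr6:41651716-41703997, minus strand, hg19) stood at 204 normalized counts in parental cells. Untreated clones 3 and 4 had 49.99 and 44.8, and the same clones under GSK126 had 60.3 and 69.8. All 4 EIR libraries were below the parental one (log2 fold change -1.86 ± 0.44, SE, adjusted p = 2.4e-04 with DESeq2), and TFEB was called lower under all 11 alternatives. TFE3 stood at 1514 in parental cells and at 1198, 1013, 1010 and 1029 in EIR cells. Its log2 fold change was -0.51 ± 0.20 (adjusted p = 0.042), which did not pass with edgeR (adjusted p = 0.090) or with the GC trend removed (0.71). MITF stood at 4468 in parental cells and at 5457, 4686, 5301 and 4297 in EIR cells. The MITF libraries overlapped the parental value, and no alternative called it (log2 fold change 0.14 ± 0.21, adjusted p = 0.67). SQSTM1, a receptor that delivers ubiquitinated cargo to autophagosomes and is itself degraded there, stood at 4783 in parental cells and at 9572, 8599, 8788 and 8633 in EIR cells. All EIR libraries were above the parental one (log2 fold change 0.90 ± 0.15, adjusted p = 1.2e-07), also under all 11 alternatives. SQSTM1 shares 21.0% of its exon bases with MRNIP on the opposite strand, and the sum of both genes was 0.81 higher on the log2 scale. It also shares 1.39% with MGAT4B on the opposite strand, which stood at 3677 normalized counts in parental cells and at 1741 to 2475 in EIR cells, and the sum of SQSTM1 and MGAT4B was 0.39 higher.

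The promoters of several members hold the element that MiT/TFE factors bind. RefSeq promoters (250 bases before to 50 after the annotated start, GRCh38.p14) were available for 31 of the 44 members. CACGTG, which reads the same on both strands, was present in 10 of these 31 (32.3%), beside 8.77% of 27305 promoters of all genes. The longer form with GT before and AC after it, which also reads the same on both strands, was present in GAA and MCOLN1 (6.45% of members, 0.421% of all genes). No promoter was matched for ASAH1, ARSA, CTSB, ATP6V1H, PSAP, ATP6V1A, ATP6V1B2, HEXA, LAMP2, CTSS, SGSH, NAGLU and CTSK. The 10 holders were ARSB, ATP6V0D1, CLN3, CTSA, CTSD, CTSF, GAA, LAMP1, MCOLN1 and NEU1. Over the 9 of them that averaged 100 or more normalized counts, the median log2 fold change of EIR against parental cells was -0.50 and 5 were called lower. Over the 19 expressed members without the element it was -0.39, with 6 called lower and 2 higher. Of the 5 holders called lower, CTSF alone was also called with edgeR and with the GC trend removed. Of the 19 members without the element, CTSZ, GLB1, LIPA and NPC2 (lower) and SQSTM1 (higher) were called in both. With MCOLN1 included, the median of all 10 holders was -0.44, and with the GC trend removed it was -0.06, with 1 called lower (CTSF) and 1 higher (MCOLN1). A match is a description of the letters, not evidence that a factor binds there. The stretches below cover the 130 bases before the annotated start, 5′ to 3′ on the strand of the gene, with CACGTG in capitals. The 9 members that hold the element within this stretch are shown, 5 of them called lower and 4 not called, while that of ARSB lies outside it.
LAMP1, chr13:113297109-113297238, plus strand, called lower: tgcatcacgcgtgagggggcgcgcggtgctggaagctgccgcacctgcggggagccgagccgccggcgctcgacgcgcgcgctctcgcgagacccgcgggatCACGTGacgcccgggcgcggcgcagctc
CTSA, chr20:45891205-45891334, plus strand, called lower: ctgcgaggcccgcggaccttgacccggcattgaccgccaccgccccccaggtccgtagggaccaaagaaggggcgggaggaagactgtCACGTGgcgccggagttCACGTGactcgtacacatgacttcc
CTSD, chr11:1763928-1764057, minus strand, called lower: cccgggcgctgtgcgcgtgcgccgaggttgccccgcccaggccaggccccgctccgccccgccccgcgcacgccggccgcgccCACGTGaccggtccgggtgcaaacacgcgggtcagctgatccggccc
CTSF, chr11:66568607-66568736, minus strand, called lower: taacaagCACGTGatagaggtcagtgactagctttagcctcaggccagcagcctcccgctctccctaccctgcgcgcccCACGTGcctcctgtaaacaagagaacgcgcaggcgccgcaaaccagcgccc
GAA, chr17:80101451-80101580, plus strand, called lower: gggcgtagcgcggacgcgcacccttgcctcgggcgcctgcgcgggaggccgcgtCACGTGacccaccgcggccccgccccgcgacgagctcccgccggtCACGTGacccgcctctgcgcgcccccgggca
MCOLN1, chr19:7522494-7522623, plus strand, not called: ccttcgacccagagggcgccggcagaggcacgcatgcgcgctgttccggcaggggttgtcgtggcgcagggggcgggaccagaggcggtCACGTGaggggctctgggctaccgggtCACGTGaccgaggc
ATP6V0D1, chr16:67481158-67481287, minus strand, not called: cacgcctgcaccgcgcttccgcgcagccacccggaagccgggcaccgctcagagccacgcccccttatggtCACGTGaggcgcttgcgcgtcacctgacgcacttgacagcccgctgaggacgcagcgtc
NEU1, chr6:31862822-31862951, minus strand, not called: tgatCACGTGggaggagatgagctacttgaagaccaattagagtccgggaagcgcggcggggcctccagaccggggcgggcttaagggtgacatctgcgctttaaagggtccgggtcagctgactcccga
CLN3, chr16:28492075-28492204, minus strand, not called: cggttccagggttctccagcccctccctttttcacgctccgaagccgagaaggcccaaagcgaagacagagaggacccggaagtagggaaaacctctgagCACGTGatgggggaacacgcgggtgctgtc

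In LAMP1, CTSD, ATP6V0D1, NEU1 and CLN3 the stretch holds the element once, and in the other 4 it holds it at 2 positions. The genes with 2 copies went different ways: CTSA, CTSF and GAA were called lower, whereas MCOLN1 was above the parental value in all 4 EIR libraries without passing the test.

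Of the membrane proteins, 1 of 6 was called lower and none higher. LAMP1 (chr13:113951554-113977987, plus strand, hg19), a major glycoprotein of the lysosomal membrane, stood at 8569 normalized counts in parental cells and at 5868, 5560, 6517 and 4887 in EIR cells. All EIR values were lower (log2 fold change -0.59 ± 0.22, adjusted p = 0.033), but edgeR (adjusted p = 0.085) and the fit with the GC trend removed (0.34) did not call LAMP1. LAMP2, its paralog that also serves chaperone-mediated autophagy, stood at 3584 in parental cells and at 3125, 3184, 3598 and 3186 in EIR cells. GSK126-treated clone 3 reached the parental level, and the log2 fold change was -0.13 ± 0.17 (adjusted p = 0.63). MCOLN1, the calcium channel mucolipin 1, stood at 60.4 in parental cells and at 129.6, 97.7, 105.7 and 94.2 in EIR cells. Every EIR value exceeded the parental one (log2 fold change 0.82 ± 0.41, adjusted p = 0.13). The remaining membrane proteins SCARB2 (carrier of glucocerebrosidase), NPC1 (cholesterol export) and CLN3 had log2 fold changes of -0.52, -0.11 and -0.38, none called.

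None of the 5 V-ATPase subunits was called by DESeq2 or by edgeR, and 1 (ATP6AP1) had an unadjusted p under 0.05 in each. ATP6AP1 was called lower in DESeq2 when genes needed at least 10 counts in 2 libraries (adjusted p = 0.030). Their log2 fold changes ran from -0.39 (ATP6AP1, an accessory subunit) to 0.13 (ATP6V1B2, a subunit of the catalytic head). The sum of their normalized counts was 9396 in parental cells and 8923, 8547, 10065 and 9335 in the EIR libraries. The parental sum lay within the range of the EIR sums. In contrast, the summed lipid handling genes were 0.51 to 0.67 lower on the log2 scale in the 4 EIR libraries, and the summed proteases 0.42 to 0.46 lower. Without PSAP the direction of the lipid handling sum turned: the other 5 genes summed to 7408 in parental cells and to 8310, 7936, 9030 and 7856 in EIR cells, 0.08 to 0.29 higher on the log2 scale.

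Of the 11 proteases, 5 cathepsins were called lower and none higher. CTSB (chr8:11700033-11727042, minus strand, hg19), a cysteine protease with endo- and exopeptidase activity, stood at 7138 normalized counts in parental cells and at 2763, 2594, 2925 and 3238 in EIR cells. The EIR libraries lay close together and far below the parental one (log2 fold change -1.31 ± 0.20, adjusted p = 1.5e-09). CTSF, another cysteine protease, stood at 1136 in parental cells and at 520, 457, 529 and 514 in EIR cells (log2 fold change -1.17 ± 0.20, adjusted p = 1.6e-07). CTSZ, a carboxypeptidase, stood at 1924 in parental cells and at 777, 497, 824 and 515 in EIR cells (log2 fold change -1.56 ± 0.37, adjusted p = 3.7e-04). All 3 were called under every alternative. CTSZ was lower in both clones than in parental cells and lower still in clone 4 than in clone 3. It shares 31.7% of its exon bases with NELFCD on the opposite strand, and the strand setting of the counting is not given; the sum of both genes was 0.81 lower on the log2 scale.

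The other called proteases changed less. CTSD, an aspartic protease, stood at 1935 in parental cells and at 1268, 1257, 1414 and 1513 in EIR cells (log2 fold change -0.51 ± 0.20, adjusted p = 0.046). CTSA, the protective protein that stabilizes beta-galactosidase and neuraminidase, stood at 3536 in parental cells and at 2708, 2350, 2604 and 2324 in EIR cells (log2 fold change -0.50 ± 0.18, adjusted p = 0.025). Neither passed with edgeR (adjusted p = 0.090 and 0.078) or with the GC trend removed (0.95 and 0.49). Of the 6 proteases that were not called, CTSC and CTSL were above the parental value in all 4 EIR libraries (log2 fold changes 0.22 and 0.29), and CTSK was below it in all 4, at 85.6 against 27.8 to 51.8. CTSH, CTSS and TPP1 had EIR libraries on both sides of the parental value.

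**Figure D3:**
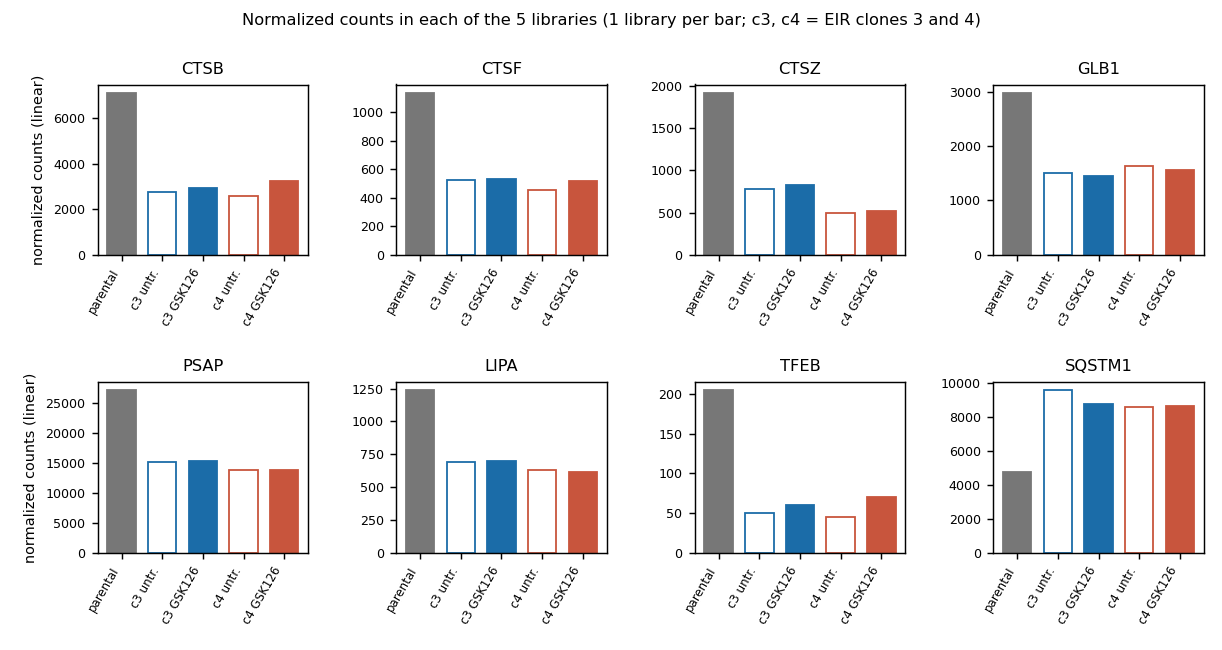
Each panel is a gene, each bar 1 library, and the y axis gives normalized counts from 0 on a linear scale (gray, parental; blue, clone 3; red, clone 4; open, untreated; filled, GSK126-treated). The parental bar is the tallest for CTSB, CTSF, CTSZ, GLB1, PSAP, LIPA and TFEB and the shortest for SQSTM1, and the EIR bars of a gene are close to each other except for CTSZ, where clone 4 is lower.

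Among hydrolases of glycans and sulfate groups, 6 of 11 tested genes were called lower and none higher. GLB1 (chr3:33038101-33138694, minus strand, hg19), the lysosomal beta-galactosidase, stood at 2990 normalized counts in parental cells and at 1504, 1645, 1455 and 1561 in EIR cells. These 4 values were alike and all below the parental one (log2 fold change -0.96 ± 0.16, adjusted p = 2.0e-07), and the call held under every alternative. HEXA, the alpha subunit of beta-hexosaminidase, stood at 2228 in parental cells and at 1279, 1178, 1301 and 1366 in EIR cells (log2 fold change -0.80 ± 0.17, adjusted p = 7.1e-05). NAGLU, which acts in heparan sulfate degradation, stood at 492 in parental cells and at 260.2, 260.4, 265.8 and 255 in EIR cells (log2 fold change -0.92 ± 0.22, adjusted p = 2.7e-04). NAGLU was the most even of the called genes across EIR libraries, yet it did not pass with the GC trend removed (adjusted p = 0.16).

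GUSB, the beta-glucuronidase, stood at 1092 in parental cells and at 555, 629, 444 and 635 in EIR cells (log2 fold change -0.95 ± 0.28, adjusted p = 0.0057). GAA, the acid alpha-glucosidase of glycogen breakdown, stood at 977 in parental cells and at 607, 499, 667 and 652 in EIR cells (log2 fold change -0.69 ± 0.25, adjusted p = 0.029). ARSA, which removes sulfate from sulfatides, stood at 210.5 in parental cells and at 119, 78.3, 109.7 and 73 in EIR cells (log2 fold change -1.14 ± 0.44, adjusted p = 0.040). For all 3 genes the EIR libraries lay below the parental one, and none passed with edgeR (adjusted p = 0.055, 0.076 and 0.096) or with the GC trend removed (0.12, 0.59 and 0.30). The hydrolases that were not called ran from -0.46 (GLA) to 0.42 (ARSB) on the log2 scale. IDUA had 8 counts in the parental library and 0 in all 4 EIR libraries, and it received no adjusted p. This is at least 2.54-fold lower when the EIR level is set to 3 counts per library. IDUA shares 13.2% of its exon bases with SLC26A1 on the opposite strand, which was above the parental value in all 4 EIR libraries. The sum of both genes was 2.07 higher on the log2 scale. How reads were divided between these genes was not tested, so the fall of IDUA is uncertain.

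Lipid handling genes split by direction, with 3 of 6 lower and 1 higher. PSAP (chr10:73576055-73611008, minus strand, hg19), the precursor of the saposins that present sphingolipids to their hydrolases, stood at 27165 normalized counts in parental cells and at 15230, 13885, 15293 and 13908 in EIR cells. All EIR values were far lower (log2 fold change -0.90 ± 0.15, adjusted p = 1.3e-07), under every alternative. LIPA, the lysosomal acid lipase for cholesteryl esters and triglycerides, stood at 1237 in parental cells and at 688, 632, 700 and 614 in EIR cells (log2 fold change -0.91 ± 0.19, adjusted p = 3.4e-05). NPC2, which hands cholesterol to NPC1, stood at 1055 in parental cells and at 530, 541, 688 and 563 in EIR cells (log2 fold change -0.86 ± 0.24, adjusted p = 0.0034). LIPA has a GC content of 41.99%, where all genes had a positive median, and its fold change was larger with the trend removed (-1.10, adjusted p = 3.2e-07). PPT1, a thioesterase that removes fatty acids from proteins, stood at 2497 in parental cells and at 3427, 3344, 3081 and 3335 in EIR cells (log2 fold change 0.40 ± 0.15, adjusted p = 0.037). All EIR values were higher, but PPT1 did not pass with edgeR (adjusted p = 0.12) or with the GC trend removed (0.074). HEXA, LIPA and NPC2 lost their call under 1 of the 11 alternatives, in which the libraries of each clone were summed (adjusted p = 0.050, 0.053 and 0.079). ASAH1 (acid ceramidase) and SMPD1 (acid sphingomyelinase) had log2 fold changes of 0.62 and -0.64 without passing. ASAH1 passed under 3 alternatives, with at least 10 counts in 2 libraries (adjusted p = 0.041), with scaling to total counts (0.037) and without treated clone 4 (0.033).

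The second question was whether GSK126 changed lysosomal transcripts in EIR cells. No member passed the test. With DESeq2, 0 of 43 tested members were called in 2 GSK126-treated against 2 untreated libraries, beside 1 of 29847 genes (0.00335%), and 0 members reached 0.05 before adjustment. A replicate block by clone again called 0 members, beside 4 genes (0.0134%), and 0 members reached 0.05 before adjustment. edgeR with that block called 0 members and 1 gene (0.00602%). In the blocked fit the log2 fold changes of the 39 members with a mean of at least 100 ran from -0.23 (CTSC) to 0.35 (TPP1) with SEs of 0.16 to 0.48. The intervals below rest on the SEs of this fit and cover only the spread between these libraries of 2 clones. They do not bound the effect of GSK126 in EIR cells at large. For LAMP1 the 95% interval ran from -0.37 to 0.31, for PSAP from -0.31 to 0.30, for SQSTM1 from -0.39 to 0.24, and for TFEB, with its low counts, from -0.77 to 1.65. The lowest unadjusted p of a member in this fit was 0.13, for ATP6V1A, the catalytic A subunit of the V-ATPase. ATP6V1A stood at 3700 and 3356 normalized counts in untreated clones 3 and 4 and at 4570 and 3944 in the treated ones, higher by 0.30 and 0.23 on the log2 scale.

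Within each clone, 1 treated library was set against 1 untreated library, so the ratios have counting intervals but no replicate check. In clone 3 no member reached a 1.5-fold difference, beside 1.11% of genes with a mean of at least 100 that were higher and 0.432% that were lower by that much. In clone 4, 2 of the 39 members with that mean were higher and 0 lower, beside 6.04% and 1.44% of such genes. These were TPP1, a tripeptidyl peptidase, and IDS, which removes sulfate in heparan and dermatan sulfate degradation. TPP1 stood at 289 in parental cells, at 218.5 and 204.6 in clone 3 without and with GSK126, and at 193.3 and 339.6 in clone 4. It was 0.81 higher with GSK126 in clone 4 (95% counting interval 0.55 to 1.08) and -0.09 in clone 3 (-0.37 to 0.18) on the log2 scale. IDS stood at 993 in parental cells and at 1157 and 1067 in clone 3 and 876 and 1447 in clone 4, which gave 0.72 (0.60 to 0.85) in clone 4 and -0.12 (-0.24 to 0.0019) in clone 3. Both genes were thus highest in GSK126-treated clone 4 and were not raised in clone 3. A neighboring transcript, ENSG00000241489, shares 75.0% of the exon bases of IDS on the same strand, but it held 44.4 normalized counts or fewer, and the ratio of the sum was 0.73 in clone 4.

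Of the 5 members with lower counts, TFEB and CTSS passed the 1.5-fold limit in clone 4 (of all 30476 genes, 24.5% were that much higher and 12.8% lower in clone 4, and 14.6% and 16.3% in clone 3). TFEB was 0.64 higher on the log2 scale in clone 4 (0.07 to 1.23) and 0.27 higher in clone 3 (-0.28 to 0.83), from the counts given above. With the GC trend removed TFEB was 0.57 higher in clone 4, below the limit. NPC1, chosen here after its values were seen, lay just under the limit at 0.55 and passed it with the GC trend removed (0.60) and with scaling to total counts (0.70). Even the treated TFEB values remained below the parental 204. CTSS, a cysteine protease of antigen-presenting cells, stood at 135.0 in parental cells, at 134.2 and 139.4 in clone 3 without and with GSK126, and at 36.6 and 21.2 in clone 4. Its ratio in clone 4 was -0.78 with an interval that included 0 (-1.66 to 0.04).

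**Figure D4:**
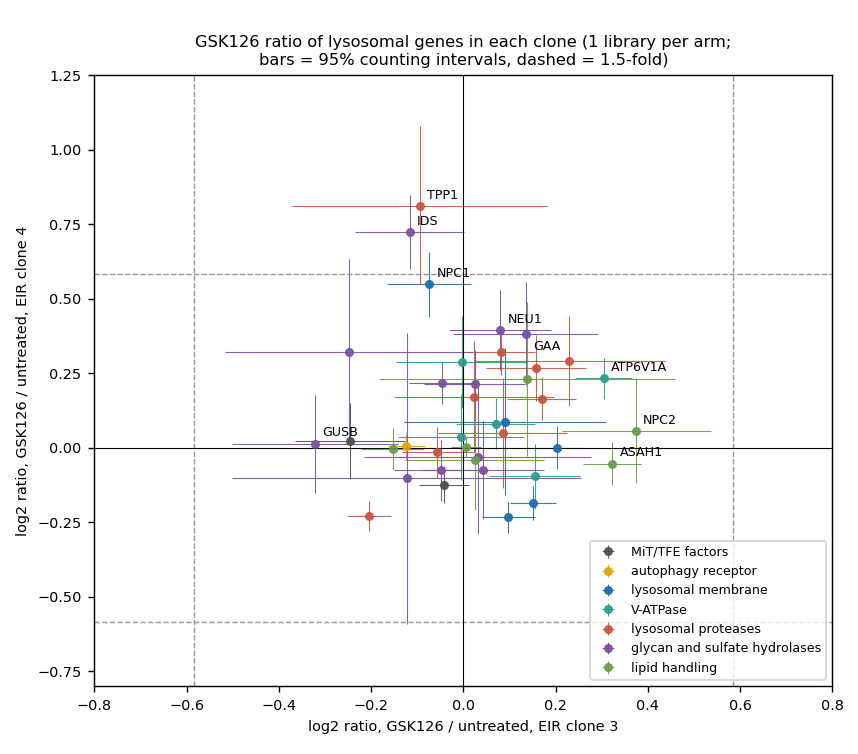
The axes give the log2 ratio of normalized counts, GSK126-treated against untreated, in EIR clone 3 (x) and clone 4 (y) for the 39 lysosomal genes whose mean reached 100 normalized counts; bars are 95% counting intervals and dashed lines mark 1.5-fold. TPP1 and IDS lie above the upper dashed line in clone 4, no gene passes a dashed line in clone 3, and most genes lie near 0 in both.

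The ratios of the members had a smaller SD than those of all genes, which were not matched to them for expression level. Single ratios among all genes reached 8.49 (clone 3) and 5.29 (clone 4) on the high side. On the low side they reached -7.36 and -5.58. How much expression level and such extremes add to the difference in SD was not tested. Their SD over the 39 members was 0.16 in clone 3 and 0.24 in clone 4 on the log2 scale, beside 0.24 and 0.39 over all 11564 genes. The medians were 0.02 and 0.05, beside 0.03 and -0.03 over all genes. With scaling to total counts the median in clone 4 was 0.20 for the members and 0.12 for all genes, a shift of the whole library. Both clones gave the same sign for 22 of the 39 members, 16 higher and 6 lower, beside 48.2% of all such genes. The members that were higher in both clones included CTSD, CTSB, CTSL, CTSH, GAA and NEU1, at 0.38 or less in clone 3 and 0.40 or less in clone 4. Summed over all 44 members, normalized counts were 116725 in parental cells, 94416 and 95999 in clone 3 without and with GSK126, and 90322 and 91750 in clone 4. The sum was therefore lower in all 4 EIR libraries, by 0.28 to 0.37 on the log2 scale and by 0.15 to 0.23 without PSAP, and it was 0.02 higher with GSK126 in each clone.

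The clones differed from each other in a few lysosomal proteases. With treatment as covariate, 3 of 43 members were called between clone 4 and clone 3, beside 9.81% of all 17708 genes tested (3.3% higher and 6.52% lower in clone 4). CTSH, an aminopeptidase known for surfactant protein processing, stood at 724 in parental cells, at 346 and 406 in clone 3 without and with GSK126, and at 679 and 831 in clone 4. Both clone 4 libraries exceeded both clone 3 libraries (log2 fold change 0.99 ± 0.24, adjusted p = 9.2e-04), and clone 4 stood near the parental level. CTSS went the other way, with both clone 4 libraries lower (log2 fold change -2.29 ± 0.55, adjusted p = 7.4e-04) and clone 3 near the parental level. CTSZ was also lower in clone 4 (-0.67 ± 0.23, adjusted p = 0.043). The CTSZ call was lost with the GC trend removed (adjusted p = 0.061). The leukocyte and macrophage markers summed to 5.1 to 18.0 normalized counts over the EIR libraries, and the part of such cells in the CTSS difference was not tested. With clone as the only term and untreated clone 3 left out, none of the 3 was called, and without treated clone 3 only CTSH was. edgeR called 5 members between the clones, beside 14.9% of all genes (5.65% higher and 9.27% lower), adding GLA (alpha-galactosidase, lower in clone 4, adjusted p = 0.039) and SMPD1 (higher, adjusted p = 0.037).

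Further genes of the pathway, in lists of 158 genes around the members, were lower more often than higher as well. These lists, too, were chosen with earlier results of these data known. In EIR against parental cells 35 of 151 tested genes were lower and 14 higher (32.5% called, beside the 25.5% of all genes). These were 23.2% lower and 9.27% higher, beside 13.2% and 12.4% of all genes. With the GC trend removed 26 were lower and 13 higher (25.8% called, beside 19.5% of all genes), among them 14 lower and 4 higher hydrolases. Of 31 further lysosomal hydrolases 14 were lower and 3 higher. The lowest of these was DPP7, a dipeptidyl peptidase, at 543 normalized counts in parental cells and 18.5, 32.6, 30.6 and 32.8 in EIR cells (log2 fold change -4.25, adjusted p = 8.7e-20). The highest was NAAA, an amidase of N-acylethanolamines, at 3.0 in parental cells and 23.7 to 40.2 in EIR cells (adjusted p = 0.0076).

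Further membrane proteins and transporters were lower in 6 and higher in 3 of 31 tested genes, or 3 and 3 with the GC trend removed. They ran from the lipid transporter ABCA2 (log2 fold change -1.57, adjusted p = 2.6e-07) to OSTM1, the partner of the chloride exchanger CLC-7 (0.99, adjusted p = 7.8e-05). Of 21 genes that deliver enzymes to lysosomes 5 were lower and 2 higher, or 2 and 2 with the GC trend removed. SORT1, a sorting receptor that carries PSAP and other proteins to lysosomes, was the lowest, at 2562 in parental cells and 317, 342, 343 and 517 in EIR cells (log2 fold change -2.76, adjusted p = 7.9e-14). The highest was VPS41, a subunit of the HOPS tethering complex (0.49, adjusted p = 0.036).

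Autophagy genes were called lower in 8 and higher in 2 of 32. WIPI1, a phosphoinositide-binding protein of forming autophagosomes, was the lowest of those called. It stood at 2848 in parental cells and 541 to 634 in EIR cells (log2 fold change -2.29, adjusted p = 3.2e-31). By its counts ULK2 fell further, and these are given with the comparison of the clones. The lipid kinase PIK3C3 was the highest of the called autophagy genes (0.89, adjusted p = 0.015). With the GC trend removed, 5 autophagy genes were lower and 0 higher. Of 17 further V-ATPase subunits 2 were higher, with ATP6V1C1 at 1.05 (adjusted p = 0.0019), and 1 was lower, ATP6V1E2 at -0.78 (adjusted p = 0.049). Of 20 genes that regulate MiT/TFE factors through mTORC1 and the Rag GTPases, 2 were higher, with FNIP1 at 0.90 (adjusted p = 8.0e-04), and 1 was lower, LAMTOR2 at -1.01 (adjusted p = 1.2e-06). FNIP1 is part of the folliculin complex and LAMTOR2 of the Ragulator complex on the lysosome. Of the genes named in these lists, ATP6V1C1, ATP6V1E2, VPS41 and PIK3C3 did not pass with edgeR (adjusted p = 0.058, 0.11, 0.098 and 0.097). With the GC trend removed these 4 (adjusted p = 0.085, 0.070, 0.17 and 0.31) and also OSTM1 (0.054) and FNIP1 (0.17) did not pass. The V-ATPase list then had 1 gene lower and 1 higher, and the mTORC1 and Rag list 1 lower and 3 higher. Each list stands beside 13.2% lower and 12.4% higher of all genes, and 9.24% and 10.2% with the GC trend removed.

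GSK126 changed 1 gene of these 158 in the blocked fit and 0 without the block. GPNMB, a glycoprotein of lysosomes and melanosomes and a known MITF target, stood at 636 in parental cells, 273 and 528 in untreated clones 3 and 4, and 727 and 1331 in the treated ones, a ratio of 1.41 and 1.33 on the log2 scale (adjusted p = 2.7e-05 with DESeq2, 0.077 with edgeR). Between the clones 10 of 154 tested genes of these lists were called (6.49%, beside 9.81% of all genes, 3.3% higher and 6.52% lower), 3 higher and 7 lower in clone 4. The autophagy kinase ULK2 was the lowest of all, at 1863 normalized counts in parental cells, 221 and 239 in untreated and treated clone 3, and 8.1 and 13.8 in untreated and treated clone 4 (log2 fold change -4.43, adjusted p = 1.6e-14). VAMP8, a SNARE of autophagosome fusion, had the smallest fall among the autophagy genes called (-0.75, adjusted p = 0.0099). The calcium channel TPCN1 (-1.08, adjusted p = 6.1e-05), the mannose 6-phosphate receptor IGF2R (-0.58, adjusted p = 0.010) and the V-ATPase subunit ATP6V1F (-0.70, adjusted p = 0.0060) were also lower in clone 4. Higher there were FNIP2, a partner of folliculin (1.13, adjusted p = 2.0e-05), and GPNMB (0.90, adjusted p = 0.0016).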

How the data were processed

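RNA-seq of 5 TOV21G libraries was analysed, grouped by the sample labels as 1 parental and 4 EIR libraries (clones 3 and 4, each untreated and GSK126-treated). The authors aligned reads to hg19 with Bowtie2 and used RSEM for the estimated counts of Ensembl genes, from an annotation whose release is not given in the sources used here. The submitters' processing notes name RSEM 1.2.3 and DESeq2. The deposited values are these estimated counts (expected counts of RSEM), not normalized. All were whole numbers and were used as deposited. RSEM divides reads that fit several genes by estimation, and strand use in counting is not given, so overlapping genes are uncertain. Total counts were 25479238 to 30764963 per library.

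Of 30476 identifiers 29203 (95.82%) matched GENCODE release 44 mapped to GRCh37, which gave symbols, coordinates and GC content. Promoters were those of RefSeq (GRCh38.p14). DESeq2 1.42.0 (Wald test, two-sided, default size factors by the median of ratios, and a Benjamini-Hochberg adjusted p under 0.05 over all genes) compared EIR with parental cells, GSK126-treated with untreated EIR cells, and clone 4 with clone 3 (treatment as covariate). Because parental cells have 1 library, the spread came from EIR libraries only. The clone number in the labels pairs treated with untreated libraries, and the deviations of same-clone libraries from the treatment means correlated at 0.862 over 11564 genes. Within-clone ratios used log2 of normalized counts plus 0.5 and a limit of 1.5-fold. Their 95% intervals are exact binomial and, like the floor of 3 counts, cover counting error only, since reads without molecular identifiers are not independent molecules. The GC trend of each library (lowess, span 0.3) was removed as an alternative.

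Other alternatives were edgeR 4.0.16 (quasi-likelihood), TMM and total count scaling, at least 10 counts in 2 libraries, each EIR library left out, clone libraries summed, treatment as covariate and the replicate block, and for ratios a pseudocount of 5, a 2-fold limit and a mean of at least 100. Fits were tested on simulated data. Members and lists were chosen with earlier results of these data known. Members called in a test or past 1.5-fold in a clone, LAMP1, LAMP2, the MiT/TFE factors and SQSTM1 were named with all values, and of other lists the highest and lowest called gene. CD3E and PECAM1 were not analysed here.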

Additional observations from a re-analysis of the deposited data

Results flagged for a closer look

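In 3 members 1 of the 4 EIR libraries stood apart from the other 3 by a gap that was large against the range of the group. The measure was Dixon's ratio of gap to range, whose limit chance passes in about 1 in 20 groups of 4 independent values. At that rate a few such gaps would arise by chance among the members, and the share over all genes is not given here. Same-clone libraries also deviated together (correlation 0.862), so the EIR libraries are not independent and the rate is only a rough guide. LAMP2 was highest in GSK126-treated clone 3, at 3598 normalized counts, with a gap of 0.871 of the range. TFE3 was highest in untreated clone 3, at 1198, with a gap of 0.897 of the range. ATP6V0D1 was lowest in untreated clone 4, at 654.10, with a gap of 0.848 of the range. The 3 values came from 3 different libraries.

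For 2 membrane proteins the GSK126 ratios of the clones had opposite signs, each with a counting interval that did not include 0. LAMP1 was 0.15 higher with GSK126 in clone 3 and -0.19 in clone 4, a difference of -0.34 on the log2 scale. SCARB2 was 0.10 higher in clone 3 and -0.23 in clone 4, a difference of -0.33. Opposite signs of any size were common, in 17 of the 39 members with a mean of at least 100 and in 5991 of 11564 such genes. How many of all genes also had both intervals apart from 0 is not given here, so these 2 genes cannot be called unusual. At counts of this size the intervals are narrow. The folds were 1.11 in clone 3 and 0.88 in clone 4 for LAMP1, and 1.07 and 0.85 for SCARB2. With 1 library per arm, the difference between the clones was not tested.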

How the results depend on the processing

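In EIR against parental cells, where 19 members were called, 11 were called with edgeR, 12 with the GC trend removed, 21 with at least 10 counts required in 2 libraries (ASAH1 and ATP6AP1 in addition), 18 with TMM factors, 15 with scaling to total counts, 10 with treatment as covariate and 7 with the libraries of each clone summed (CTSB, CTSF, CTSZ, GLB1, PSAP, TFEB and SQSTM1, which were called in every fit). Leaving out 1 EIR library gave 12 to 17, with 12 without untreated clone 3 and 12 without untreated clone 4. Of these fits, the share of all genes called is given above only for the main fit, edgeR and the GC trend. Between clones, where 3 were called, edgeR called 5 and a fit on clone alone 5, whose share of all genes is not given here. That fit, chosen after seeing the data for leaving out a library because the one with treatment as covariate had no residual degrees of freedom, gave 0 to 6: 0 without untreated clone 3, 1 (CTSH) without treated clone 3, 5 without untreated clone 4 and 6 without treated clone 4. For GSK126 in clone 4, 4 members passed 1.5-fold, 0 with a 2-fold limit and 2 with a mean of at least 100 (TPP1 and IDS); in clone 3 it was 0 under each alternative. The replicate block left 0 members called for GSK126, also with edgeR and with the GC trend removed and changed no call of a member; over all genes it called 4 in place of 1, GPNMB among them. The cause of these moves was not tested. Over single genes and settings, 433 values kept their side of the threshold, 74 lost it, 7 gained it, 10 moved and 12 changed sign, and 6 ratios within a clone also took the opposite sign; none of the 12 results concerned had been called. For GSK126 the signs of LAMP1 (0.054 in place of -0.02) and SQSTM1 (0.0024 in place of -0.07) turned with scaling to total counts. Leaving out 1 library gave log2 fold changes of -0.25 to 0.18 for LAMP1, -0.012 to 0.18 for LAMP2, -0.27 to 0.055 for MITF, -0.16 to 0.016 for SQSTM1 and -0.25 to 0.0062 for TFE3 under GSK126, and between clones of -0.31 to 0.33 for TFEB (-0.089 without untreated clone 3) and -0.26 to 0.0021 for TFE3. Parental cells have 1 library, each EIR line is 1 clone, and the 2 against 2 comparison of GSK126 left intervals of about 0.3 or more on the log2 scale to each side for the members.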
